A study of Mus musculus with 2 samples.

Results

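Foxp2 ChIP peaks were examined at 8 genes of TGF-beta and activin signalling, fibrotic growth factors and collagens: Tgfb1, Ltbp1, Acvr1, Tgfbr1, Smad3, Fgf2, Col8a1 and Col11a2. They are 8 of 49554 genes annotated on the 20 chromosomes with peaks (1 to 19 and X). The genes were selected on the positions and folds of these same peaks, together with the centre of the pathway as a contrast, and a peak was counted for a gene where its summit lay in the gene or within 50 kb of its annotated span. By that rule 5 of the 944 peaks of the list belonged to 5 of the 8 genes, and Tgfb1, Tgfbr1 and Smad3 had none. The same rule was met by 6.13% of protein-coding genes and 5.34% of all annotated genes. Because of how the 8 were selected, nothing is read from their share.

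The cells were C1.1, a mouse kidney tubular epithelial line, transfected with a Foxp2 CRISPR activation plasmid and stably selected, a plasmid that directs an activator to the endogenous gene. The level of Foxp2 reached was not analysed here. DNA pulled down with an antibody from chromatin cross-linked with 1% formaldehyde (1 ChIP library) was compared with DNA of the same activated cells taken before the pull-down (1 input library). C1.1 cells without the plasmid, a control antibody and a second ChIP library were not analysed here, so a peak is a place where ChIP reads exceed input reads in activated cells and not a change caused by activation. The peak list holds no expression values, and the tubular identity of the line could not be checked against markers.

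TGF-beta is secreted in a latent complex that binding proteins such as Ltbp1 anchor in the extracellular matrix. Once released, it brings type II and type I receptor kinases together. The type I receptor (Tgfbr1 for TGF-beta, Acvr1 mainly for bone morphogenetic proteins) phosphorylates Smad proteins, which enter the nucleus and switch genes on or off. In the kidney the pathway is known as a driver of fibrosis, in which fibroblasts, stimulated also by growth factors such as Fgf2, deposit collagens between the tubules. Foxp2 is a forkhead transcription factor, a family whose members bind DNA elements built around TGTTTAC.

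The growth factor gene had the highest fold of the 5 peaks. Fgf2, which encodes basic fibroblast growth factor, a mitogen of fibroblasts and endothelial cells, had a peak at chr3:37354698-37355055 (mm10, 358 bp wide) with a fold of 14.9 over input background at the summit. The summit had a pileup of 60 ChIP reads against a background of 3.09 scaled reads, the lowest in the list. The exact 95% Poisson interval of that pileup put the fold between 11.4 and 19.1. The fold ranked 13 of 944, at or above 98.7% of the peaks. The list lacks 39 peak numbers, and stronger peaks may be among them. The summit lay inside Fgf2 (chromosome 3, 37348477 to 37410106), 6205 bp downstream of its RefSeq start and 10.4% of the way along the gene. No gene lay nearer. The noncoding gene Fgf2os was 5017 bp away and the closest other coding gene, Bbs12, 33408 bp. The peak stood alone, with the next summit 3023 kb away. Intervals printed with a fold here cover only the counting error of the ChIP pileup, and reads are not independent molecules.

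Of the signalling genes, the receptor Acvr1 had a peak of intermediate strength. Acvr1 encodes a type I receptor kinase (also called ALK2), mainly of the bone morphogenetic protein branch. Its peak at chr2:58549236-58549525 had a pileup of 27 reads against the same lowest background of 3.09. The fold was 6.84 (4.59 to 9.84), at or above 73.5% of the peaks. The summit lay 17454 bp downstream of the start on the minus strand, 14.5% along a gene of 120391 bp. The closest other gene was Upp2, a uridine phosphorylase gene, at 16943 bp, the only other gene within 50 kb and slightly closer to the summit than the start of Acvr1. The next summit was 2084 kb away.

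Ltbp1, the gene of latent TGF-beta binding protein 1, had the lowest fold of the 5, with an interval that overlapped those of Acvr1, Col8a1 and Col11a2. The peak at chr17:75305268-75305500 had a pileup of 18 reads over a background of 3.41 and a fold of 4.31 (2.64 to 6.67), at or above 26.5% of the peaks. Its −log10 q of 4.15 compares with a median of 7.68 over all peaks. The summit lay far into this gene of 387033 bp, 77.5% of the way along and 126549 bp downstream of the nearer of its 2 RefSeq starts. No other gene lay within 50 kb of it, and Rasgrp3, the closest, was 130540 bp away.

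The collagen genes differed in where their peaks lay. Col8a1 encodes a chain of type VIII collagen, a short-chain collagen of basement membranes and vessel walls. Its peak at chr16:57698929-57699225 had a pileup of 32 reads over a background of 3.09 and a fold of 8.06 (5.59 to 11.3), at or above 82.4% of the peaks. The summit lay in the middle part of the gene, 55618 bp downstream of the start on the minus strand and 42.6% along its 130482 bp, with no other gene within 50 kb. Exon and intron classes were not analysed here for any of these summits.

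Col11a2, the gene of a chain of the fibrillar type XI collagen of cartilage, reached the rule only through a peak that belongs to another gene by position. The peak at chr17:34032087-34032353 lay 6641 bp outside Col11a2, upstream of its start, with a pileup of 34 reads, a background of 5.68 and a fold of 5.24 (3.68 to 7.26). The summit was inside Rxrb, which encodes the nuclear receptor RXR-beta, and 72 bp before the second RefSeq start of Rxrb. The zinc transporter gene Slc39a7 (588 bp) and H2-Ke6 (4223 bp) were nearer than Col11a2 too. Within 50 kb of the summit there were 11 genes other than Col11a2, against 0 to 4 other genes at the peaks of the other 4 genes.

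**Figure D1:**
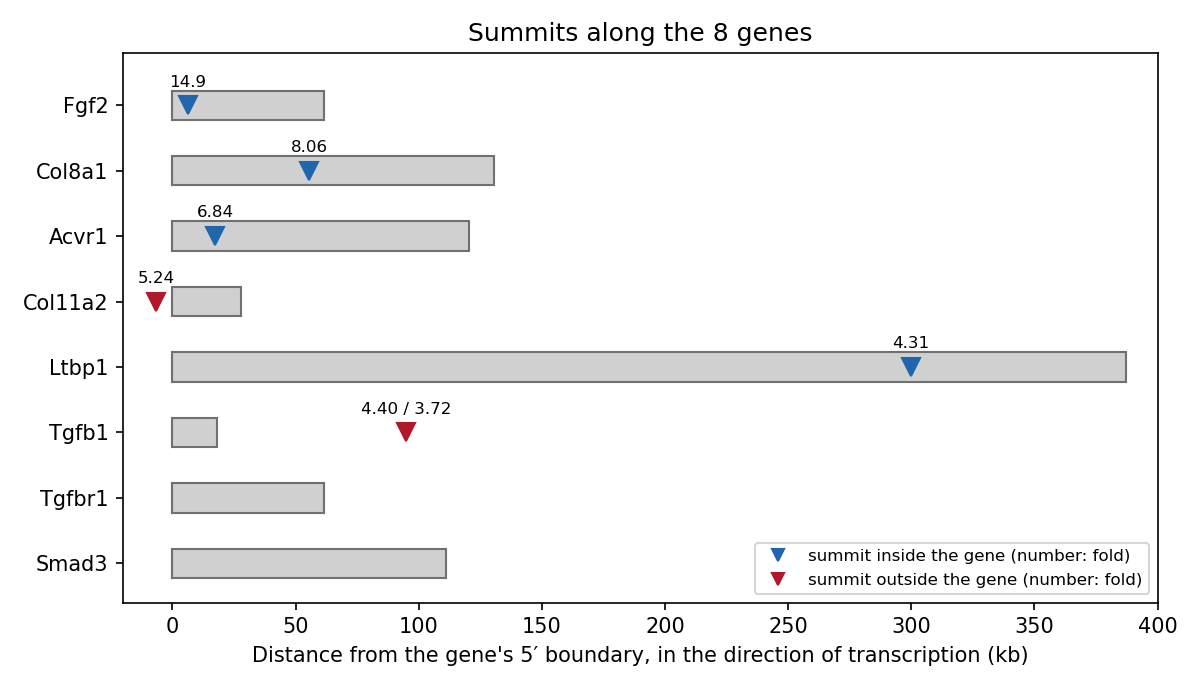
The 8 genes as grey bars drawn to scale from their 5′ boundary in the direction of transcription (x axis, kb), with triangles at peak summits (blue inside the gene, red outside) and the fold of each peak above. Fgf2, Col8a1, Acvr1 and Ltbp1 hold a summit, the summit counted for Col11a2 lies outside it, the 2 summits nearest to Tgfb1 lie beyond 50 kb, and those nearest to Tgfbr1 and Smad3 are off the scale.

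The stretch before the second start of Rxrb is shown because it carries the summit of the peak counted for Col11a2 together with a forkhead element. The peak nearest to Smurf2, a ubiquitin ligase gene that limits Smad signalling, and that nearest to Tgfb2, a TGF-beta ligand gene, also lay at the start of another gene, Polg2 and Rrp15, and are shown beside it. Each line gives the 120 bases before a RefSeq start (GRCm38.p6, the build called mm10), 5′ to 3′ on the strand of the gene named, and capitals mark a match to TGTTTAC or its reverse complement.
Rxrb, chr17:34032230-34032349, plus strand: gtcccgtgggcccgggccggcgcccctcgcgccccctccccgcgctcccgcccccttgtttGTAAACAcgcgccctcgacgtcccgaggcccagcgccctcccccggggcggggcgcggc
Polg2, chr11:106779538-106779657, minus strand: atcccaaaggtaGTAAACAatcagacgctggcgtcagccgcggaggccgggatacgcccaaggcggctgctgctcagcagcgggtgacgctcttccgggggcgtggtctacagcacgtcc
Rrp15, chr1:186749359-186749478, minus strand: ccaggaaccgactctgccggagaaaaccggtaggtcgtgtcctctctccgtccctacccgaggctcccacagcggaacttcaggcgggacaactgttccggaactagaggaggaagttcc

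In the Rxrb stretch the match, GTAAACA on the strand of the gene, spanned 34032291 to 34032297 and its nearest base lay 13 bp from the summit. The Polg2 stretch had the same letters at 106779639 to 106779645, 14 bp from a summit with a fold of 4.90 (3.3 to 7.0). The Rrp15 stretch had no match, and the peak there had a fold of 3.91 (2.29 to 6.29). All 120 bases of the first 2 stretches and 105 of the third lay inside the peaks.

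For comparison, TGTTTAC on either strand was found in 3.65% of 32851 RefSeq start windows (250 bases before to 50 after a start). Of the 52 windows that held a Foxp2 summit it was found in 16, at a median of 16 bp from the summit (centre of the match). Those windows hold 44 summits in all, since windows of neighbouring starts overlap, and this is a description with no test. A match shows only that the letters are present.

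None of the 8 genes had a summit in its own start windows, where 0.159% of all windows on these chromosomes held one. The 10 windows of the 8 genes contained neither TGTTTAC nor the wider form TGTTTNC, of which TGTTTAC is a case and which 20.5% of all windows held. The Smad element CAGACA occurred in 3 of the 10 windows, 1 each of Ltbp1, Col8a1 and Tgfbr1, against 21% of all windows. The Smad palindrome GTCTAGAC (0.213% of windows) and the AP-1 site TGANTCA (7.81%) occurred in none of the 10. These letters were searched on both strands, and the sequence under the summits of Fgf2, Acvr1, Ltbp1 and Col8a1 was not analysed here.

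The ligand, receptor and Smad at the centre of canonical TGF-beta signalling had no peak by the rule among the 944 peaks. Most genes had none, as a summit by the rule was found for only 6.13% of 21631 protein-coding genes. These genes were also chosen as a contrast with the peaks known, so nothing is read from the absence. The list was held without 39 peak numbers, the 8 lowest among them, so an absent peak and a distance to the nearest summit hold for these 944 only. Tgfb1, the main ligand in fibrosis (chromosome 7, 25687002 to 25705077), came closest. A pair of summits lay 76818 bp and 77221 bp beyond the gene, 403 bp apart and both inside Axl, a receptor tyrosine kinase gene, with folds of 4.40 (2.66 to 6.89) and 3.72 (2.36 to 5.59). There were 7 genes nearer to each of them than Tgfb1. These were the values just outside the 50 kb limit, and the 6641 bp of Col11a2 the value just inside it.

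Smad3, the receptor-activated Smad of the TGF-beta branch (chromosome 9, 63646766 to 63757994), had its nearest summit 1.44 Mb away, with a fold of 11.2. Tgfbr1, the type I receptor of TGF-beta (chromosome 4, 47353222 to 47414926), had its nearest summit 6.94 Mb away, with a fold of 6.11. Both genes lie on chromosomes with few peaks, at 0.161 peaks per Mb on chromosome 9 and 0.134 on chromosome 4, against 0.359 over all 20 chromosomes. The densest chromosome among those of the 8 genes was chromosome 17, at 0.696 peaks per Mb, which holds both Ltbp1 and Col11a2.

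A summit in the gene or within 50 kb was found for 6.13% of 21631 protein-coding genes and for 5.34% of all annotated genes. The 5 of 8 genes found here were picked partly for having such a summit, and nothing is read from their share. A summit inside the gene was found for 4 of the 8, against 1.63% of protein-coding genes and 5.04% of the 4941 protein-coding genes that span at least 50 kb. All 4 genes with a summit inside were of that length, as were Tgfbr1 and Smad3.

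Among the 5 peaks, only the counting interval of Fgf2 was clear of the others, by a small margin. The interval of the Fgf2 peak (11.4 to 19.1) began above the upper end of every other interval, of which that of Col8a1 reached highest, to 11.3. The intervals of Col8a1, Acvr1, Col11a2 and Ltbp1 all overlapped one another. Overlap does not show that folds are equal, and with 1 ChIP library the order of the 5 was not tested. The median fold of the 5 was 6.84, beside 5.13 over all 944 peaks, and 4 of the 5 were at or above that median. Since the genes were selected on these folds, nothing is read from that difference or from the separation of Fgf2 from the others. The intervals also take the input background as exact. Peak widths ran from 233 bp (Ltbp1) to 358 bp (Fgf2), with a median of 290 bp beside 268 bp over all peaks.

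**Figure D2:**
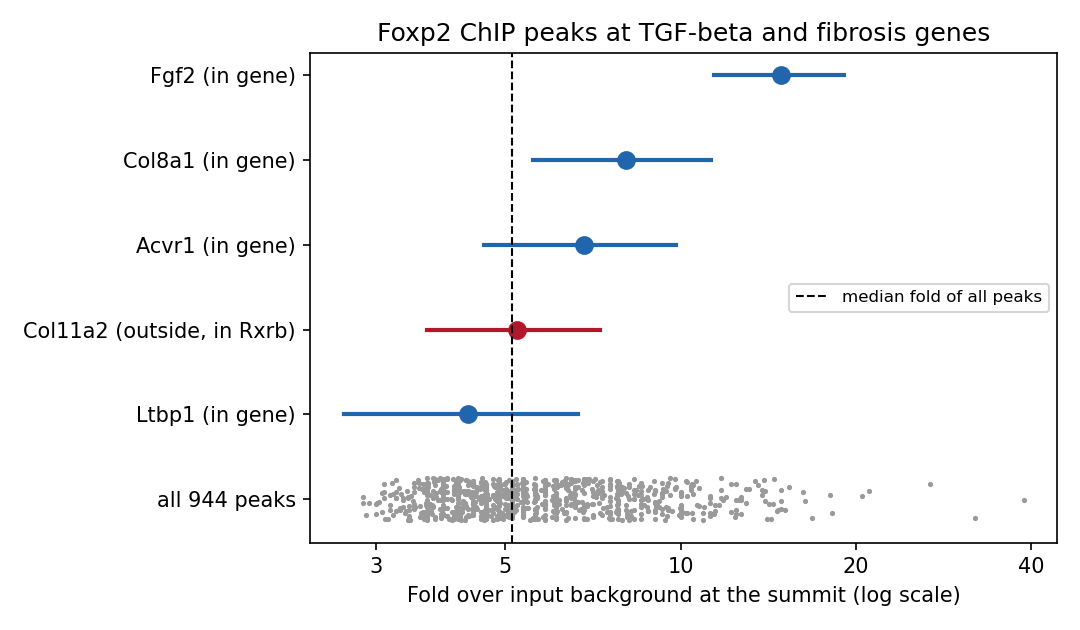
Fold over input background at the summit (x axis, log scale) of the 5 peaks, each with its exact 95% Poisson counting interval (blue with the summit in the gene, red outside it), above the folds of all 944 peaks as grey points spread vertically at random. The interval of Fgf2, 11.4 to 19.1, does not overlap the others, and the dashed line marks the median of all peaks, 5.13.

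The order by fold was not the order by ChIP reads. The Col11a2 peak had the second highest pileup of the 5, 34 reads, and only the fourth highest fold, with an input background of 5.68 where Fgf2, Col8a1 and Acvr1 had 3.09. That value of 3.09 is the lowest background in the list, shared by 408 of the 944 peaks (43.2%). It is read as a floor and not as input counted at each summit. No 2 of the 5 peaks lay within 50 kb of each other or of any other summit.

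**Figure D3:**
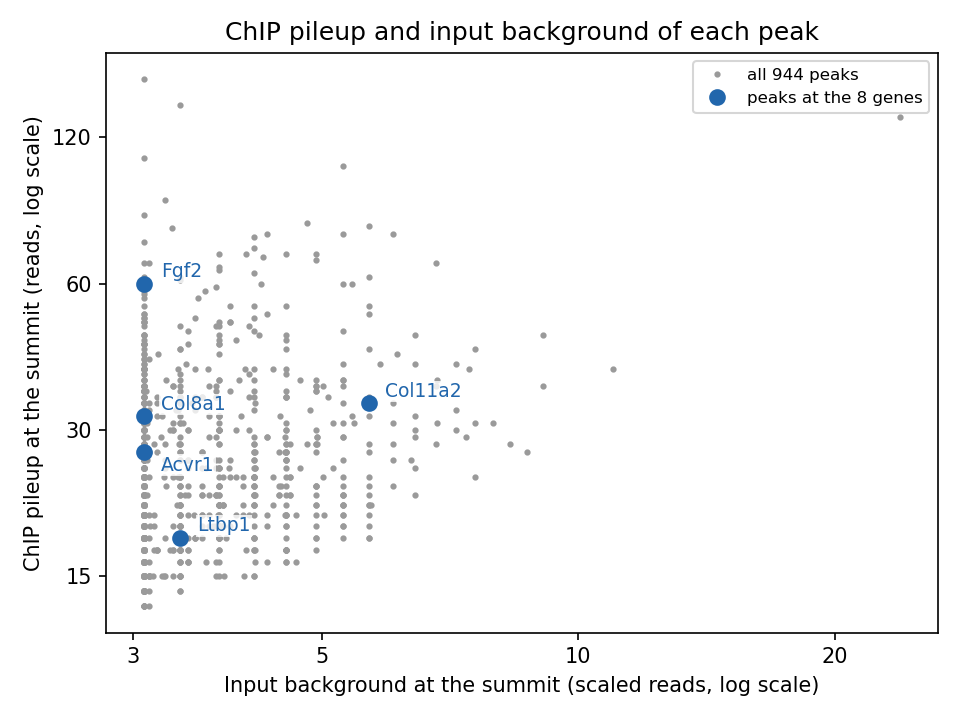
ChIP pileup in reads (y axis, log scale) against input background in scaled reads (x axis, log scale) at the summit of each of the 944 peaks (grey) and of the 5 peaks at the 8 genes (blue). Fgf2, Col8a1 and Acvr1 sit at the lowest background, 3.09, and Col11a2 has a background of 5.68. The value of 3.09 is shared by 408 of the 944 peaks and is read as a floor, not as input counted at each summit.

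The wider pathway was read from 8 lists of ligands, receptors, latent complex proteins, Smads, inhibitors, targets, growth factors and collagens, 176 genes in all, which include the 8. Of these, 17 (9.66%) had a summit in the gene or within 50 kb, beside 6.13% of all protein-coding genes. Without the 8 genes the count was 12 of 168 (7.14%), close to that background share. The listed genes were longer than most, with a median of 39.5 kb against 17.3 kb for protein-coding genes. Of the 74 listed genes of at least 50 kb that are not among the 8, 4 (5.41%) held a summit, against 5.04% of all protein-coding genes of that length.

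By role, 1 of 26 ligand genes, 1 of 14 receptor genes, 2 of 14 genes of latent complex binding and activation, 2 of 19 inhibitors and 2 of 19 target genes had a summit by this rule. No gene of 11 Smads and their cofactors did. The counts were 5 of 29 for growth factors of fibrosis and their receptors and 4 of 44 for collagens. These counts include the genes picked for their peaks. Without the 8 genes they were 1 of 25 ligands, 0 of 12 receptors, 1 of 13 latent complex genes, 0 of 10 Smads and cofactors, 4 of 28 growth factors and receptors and 2 of 42 collagens, and those of inhibitors and targets stayed as they were. With so few genes a list, none of these counts is read as a difference from the background share.

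**Figure D4:**
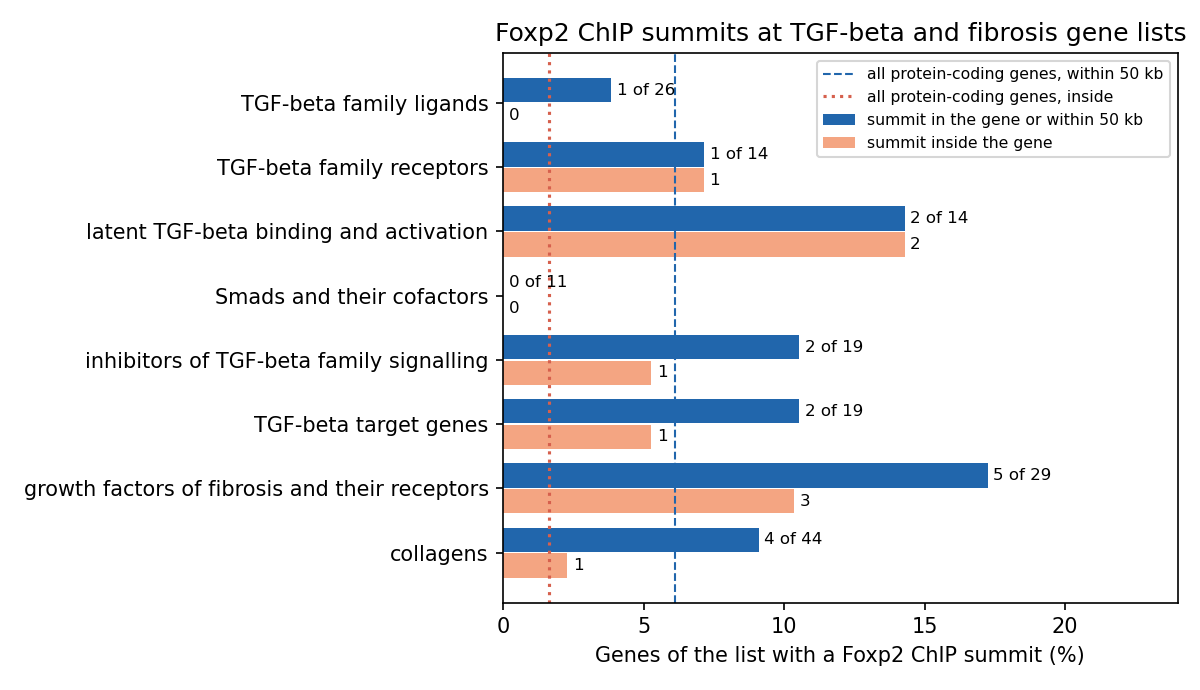
Share of the genes of each list with a summit in the gene or within 50 kb (blue bars, x axis in %) or inside the gene (orange bars), with the counts beside the bars. The bars include the 8 genes, 5 of which have a peak. The dashed and dotted lines mark the shares over all protein-coding genes, 6.13% and 1.63%.

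Of the listed genes outside the 8, 5 had a summit inside. Itgb6, which encodes the epithelial integrin subunit that helps to release TGF-beta from its latent complex, had the largest fold of them, 7.08 (4.79 to 10.1), 40651 bp downstream of the nearer of its 2 starts. Pmepa1, a TGF-beta-induced inhibitor of Smad signalling, had a fold of 4.26 (2.71 to 6.41). The insulin-like growth factor receptor gene Igf1r had a fold of 5.62 (3.61 to 8.38), 176830 bp into the gene, and Met, the hepatocyte growth factor receptor gene, one of 4.40 (2.66 to 6.89), 28880 bp downstream of its start. Cdkn1a, the gene of the arrest protein p21 and a target of TGF-beta, had a fold of 4.17 (2.62 to 6.33), 1495 bp downstream of the nearer of its 2 starts. All 5 intervals lay below that of Fgf2 (11.4 to 19.1). Those of the peaks outside but within 50 kb of Pdgfb (6.61 to 12.7) and Col4a4 (5.95 to 11.5) overlapped it.

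For 6 listed genes outside the 8, another coding gene was nearer to the summit. The peak within reach of Fgf7, the keratinocyte growth factor gene, lay 3404 bp upstream of it and inside Fam227b (7.21, 4.97 to 10.1), and that within reach of Pdgfb, a platelet-derived growth factor gene, 44984 bp away and inside Cbx7 (9.28, 6.61 to 12.7). Those of the collagen genes Col4a4 (8.39, 5.95 to 11.5) and Col9a3 (5.43, 3.59 to 7.92) lay 19216 bp and 24185 bp away, inside Rhbdd1 and the noncoding gene Gm30144. That of Smurf2 lay 40436 bp away at Polg2, and that of Tgfb2 39686 bp away, inside the noncoding gene A430105J06Rik and 25 bp from Rrp15. The peak of Col11a2 joins these 6 as one that is counted by distance and sits in or at another gene.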

How the data were processed

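Chromatin immunoprecipitation with sequencing was done on 1 Foxp2 ChIP library and 1 input library. Peaks were called with MACS2 on mm10 after bcl2fastq, per the submitters' processing notes, with the input as control, per the labels. For the aligner, the filters and the versions, nothing is given in the sources used here. Library depths are unknown. Folds are a ratio the authors' caller computed of ChIP pileup to input background at the summit. The lowest background, 3.09, is shared by 408 of the 944 peaks and is read as a floor. The −log10 p and −log10 q values are as deposited. The deposited score repeats −log10 q and was not used. Peak numbers ran to 983. Of these, 39 numbers (including the 8 lowest) were not analysed here. Since −log10 q never rose with the number, the strongest calls may be among those 8, and ranks hold within the 944 peaks only.

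The whole ChIP pileup of each peak was solved from its fold, read as (pileup + 1) / (background + 1), and its p, read as an upper Poisson tail. The recomputed −log10 p missed the deposited one by at most 2.05e-05, and the next whole pileup missed it by at least 0.175. The function was tested on simulated data. Gene spans and start windows came from RefSeq (GRCm38.p6). All 8 genes matched both tables. Listed genes without a start window have no direction given. A nearer gene is one with a smaller distance from the summit to its span. Named genes are the 8, the genes at their peaks, and listed genes with a summit inside or nearest among coding genes. Listed genes with another coding gene nearer (Fgf7, Pdgfb, Col4a4, Col9a3, Smurf2 and Tgfb2) were added to them with their values known. Of the listed genes counted, 1 is not reported here by name. The 8 genes, the lists and the motifs were chosen with earlier results of these peaks known. No test was run, since there is no replicate. Alternatives were other distances, stricter peaks, whole-peak overlap and coding genes only. Python 3.11.15, numpy 2.4.6, pandas 2.3.3, scipy 1.17.1 and matplotlib 3.10.9 were used.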

Additional observations from a re-analysis of the deposited data

How the results depend on the processing

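The number of the 8 genes with a peak ran from 4 to 6 under the distances, thresholds and overlap tried, beside 5 reported above. The number of their peaks ran from 4 to 7, beside 5, and their median fold from 5.24 to 7.45, beside 6.84. Since the genes were picked partly for these peaks, nothing is read from how little these values moved. Within 100 kb Tgfb1 was added through the summits inside Axl. With −log10 q of at least 5, and with a fold of at least 5, Ltbp1 was lost. Fgf2, Acvr1 and Col8a1 were counted under each alternative, and Col11a2 was not where a summit inside the gene was required. The count of listed genes with a summit moved more, from 17 to 31 within 100 kb, 9 inside the gene, 11 with −log10 q of at least 5 and 10 with a fold of at least 5, as the rules admit more or fewer genes and peaks. No paired analysis was possible because there is 1 library in each group. Variation between ChIP experiments was not measured.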

Other observations

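Peaks lay at 3 further genes tied to TGF-beta family signalling, named after their values were seen and outside the lists. A summit in the gene or within 50 kb was found for 6.13% of 21631 protein-coding genes. Among the listed genes without the 8 it was found for 12 of 168 (7.14%). Nothing is read from the number of these 3 genes, which were picked by their values. Fkbp1a encodes FKBP12, a protein known to bind type I receptors of the TGF-beta family. The largest fold among the 944 peaks, 38.8 (33.1 to 45.3), had its summit 5698 bp upstream of the Fkbp1a start, with the noncoding gene Gm14167 nearer at 3941 bp.

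Itgb5, which encodes an integrin subunit of a receptor that can activate latent TGF-beta, held 3 summits between 48607 and 62653 bp downstream of its start. Their folds were 14.7 (11.6 to 18.4), 4.88 (3.04 to 7.49) and 3.42 (1.93 to 5.67), and the interval of the strongest overlapped that of the peak in Fgf2. Fstl1, the gene of a secreted relative of follistatin, had a summit 1179 bp downstream of its start with a fold of 5.62 (3.61 to 8.38).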
